A study of Mus musculus with 18 samples.

Results

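The expression of 10 cartilage genes, out of 24421 gene symbols counted, was followed in mouse bone marrow (BM) mesenchymal stromal cells. They were taken by symbol from the deposited counts. The 3 regulators are the transcription factors Sox9, Sox5 and Sox6. The 7 matrix genes are Acan (aggrecan), Hapln1 (its link protein), Comp (cartilage oligomeric matrix protein) and the 4 matrilins Matn1, Matn2, Matn3 and Matn4. Collagens were not among them.

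Cartilage consists of few cells in a large amount of matrix. SOX9 switches on the genes of that matrix, and SOX5 and SOX6, which carry no activation domain of their own, bind beside it on cartilage enhancers. Aggrecan holds water through its chondroitin sulfate chains and is locked onto hyaluronan by the link protein. COMP and the matrilins are adaptor proteins that join collagen fibrils to other parts of the matrix. BM stromal cells can give rise to bone, cartilage and fat cells.

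The study asked what loss of POT1a, a protein that protects telomeres, does to these cells, and RNA was sequenced in 18 libraries, 3 in each of 6 groups. Of these, 12 came from cultured CD51+/PDGFRα+ cells of C57BL/6 mice aged 4 to 6 months that all carried a flox-stop-flox tdTomato reporter. The cells were either Pot1a wt/wt or labelled Pot1a Δ/Δ. All were exposed to vesicles carrying Cre (10 µL per well for 12 h), re-sorted for tdTomato 48 h later and collected at week 1 or week 4. The other 6 libraries came from tdTomato+ cells sorted without culture from the marrow of C57BL/6 mice aged 2 weeks that carried NG2-cre and loxp-tdTomato, labelled Pot1a wt/Δ in 3 libraries and Δ/Δ in 3. Because the reporter stays on once Cre has acted, it marks every descendant of a cell that expressed NG2, a proteoglycan of pericytes and of other immature cells. The genotype field of all 6 sorted libraries reads fl/fl, and their groups were taken from the titles. The study describes the replicates of each sequenced group as mice, but the labels tie no library to a mouse, and whether the same mice served at both weeks was not given in the sources used here.

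Library totals ran from 12807832 to 90717232 counts in culture and from 28918757 to 49992698 in sorted cells. Levels are given as CPM, the reads of a gene scaled by the total of its library, which does not correct for gene length. Pot1a was not lower in the cultured libraries labelled Δ/Δ: its mean was 34.3 CPM against 34.6 in wt/wt at week 1 and 46.0 against 35.1 at week 4, where it passed the test as higher (edgeR, adjusted p = 0.0298) but not with a replicate block (0.0551), without a filter on low counts (0.0673), with only the 6 libraries of that week (0.164), or without wt/wt replicate 2 or 3 or Δ/Δ replicate 1 or 2 (0.0901 to 0.108). In sorted cells it was 27.8 CPM in Δ/Δ against 29.8 in wt/Δ. The count sums all exons of the gene, and which of them Cre removes was not given in the sources used here, so the level does not check the labels. All 10 markers of mesenchymal stromal cells had counts in each of the 6 groups, which by itself does not establish identity. At week 4 their summed level was 14671.9 to 18531.5 CPM in Δ/Δ against 7702.6 to 9765.3 CPM in wt/wt. Of these markers 5 were called higher in Δ/Δ there and 2 lower (9.2% and 6.46% of all genes). In sorted cells the sum was 29807.7, 13440.4 and 12315.1 CPM in wt/Δ and 17722.9 to 23845.3 CPM in Δ/Δ. In the sorted libraries the summed level of 6 endothelial markers was 898.8 to 1724.4 CPM and that of 8 white blood cell markers 715.9 to 2022.9 CPM, against at most 10.6 and 18.2 CPM in culture. The wt/Δ replicate 2 and Δ/Δ replicate 3 libraries also held 1568.9 and 860.6 CPM of 6 megakaryocyte markers, against 18.3 to 26.9 CPM in the other 4.

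The 10 genes fell into 3 classes by raw counts per library in culture, which is not an order of level. Sox9, Comp, Matn2 and Matn3 had at least 10 counts in all 12 cultured libraries. Sox5 was under 10 counts in 1 of the 12, Matn4 in 2 and Sox6 in 10. Acan, Hapln1 and Matn1 were at or near 0 and passed no filter there, so 7 of the 10 genes were tested in culture and all 10 in sorted cells. Per kb of exon, Comp had the highest mean level of the 10 in each cultured group, at 8.38 to 19.8 CPM per kb, and Matn2 and Sox9 took the next places. In sorted cells Matn2 came first in both groups, at 6.99 CPM per kb in wt/Δ and 8.69 in Δ/Δ, ahead of Comp and Sox9.

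The sequence just before the start of 4 of the matrix genes is shown for contrasts between conditions: Acan and Matn1 were counted in sorted cells and hardly or not at all in culture, and Matn3 and Matn4 moved in opposite directions during culture. Hapln1, whose level was also higher in sorted cells, is not shown because its RefSeq window lies inside the gene as GENCODE draws it. Each run is the 250 bases before the RefSeq start on GRCm38.p6, 5′ to 3′ on the strand of the gene. Capitals would mark the hexamers ACAATG or ACAAAG on either strand, to which SOX proteins are known to bind; the windows hold neither, so all letters are lower case. Of 32851 promoter windows of the same length in the RefSeq table, 25.2% hold 1 or both.
Acan (chr7:79052976-79053225, plus strand): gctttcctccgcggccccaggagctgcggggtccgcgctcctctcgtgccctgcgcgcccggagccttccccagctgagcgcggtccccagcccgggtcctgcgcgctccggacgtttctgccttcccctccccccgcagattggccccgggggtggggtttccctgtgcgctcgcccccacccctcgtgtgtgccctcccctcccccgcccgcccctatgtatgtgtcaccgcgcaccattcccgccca
Matn1 (chr4:130944135-130944384, plus strand): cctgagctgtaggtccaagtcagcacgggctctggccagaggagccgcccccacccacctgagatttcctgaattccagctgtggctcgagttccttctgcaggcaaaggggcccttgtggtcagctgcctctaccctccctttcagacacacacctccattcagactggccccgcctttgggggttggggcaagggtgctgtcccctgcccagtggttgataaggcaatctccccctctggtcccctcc
Matn3 (chr12:8947679-8947928, plus strand): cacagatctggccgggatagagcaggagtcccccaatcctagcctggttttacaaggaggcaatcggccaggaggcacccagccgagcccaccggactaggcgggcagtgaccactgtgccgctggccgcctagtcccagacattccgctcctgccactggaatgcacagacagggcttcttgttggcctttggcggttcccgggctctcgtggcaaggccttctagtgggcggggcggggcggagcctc
Matn4 (chr2:164405161-164405410, minus strand): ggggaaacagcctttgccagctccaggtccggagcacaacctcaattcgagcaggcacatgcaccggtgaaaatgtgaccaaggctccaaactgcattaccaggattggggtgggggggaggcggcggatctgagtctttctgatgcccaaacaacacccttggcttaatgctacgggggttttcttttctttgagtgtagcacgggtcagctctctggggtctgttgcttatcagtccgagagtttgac

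Sox9, on chromosome 11 (112782224 to 112787760, GRCm38), was the steadiest of the 3 regulators in culture. In CPM, its level was 36.9, 28.9 and 28.8 in wt/wt at week 1, and 29.0, 26.0 and 22.0 in those labelled Δ/Δ. By week 4 it was 22.1, 19.6 and 24.8 in wt/wt and 25.6, 20.4 and 19.9 in Δ/Δ. The highest of the 12 cultured libraries was 1.88 times the lowest, and each group overlapped its neighbour in the order of means.

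Between genotypes Sox9 did not pass the test at either week. The log2 fold change of Δ/Δ over wt/wt was -0.30 (95% interval -0.62 to 0.02, edgeR's quasi-likelihood test, adjusted p = 0.474) at week 1. For week 4 it was -0.02 (-0.35 to 0.30, adjusted p = 0.955). From week 1 to week 4 it fell in wt/wt (log2 fold change -0.52, standard error 0.15, adjusted p = 0.0174), with no overlap between the groups. That call was lost without wt/wt week 1 replicate 1 (adjusted p = 0.0677) or week 4 replicate 2 (0.0697). Over the same time Sox9 in Δ/Δ changed by -0.24 on the log2 scale (adjusted p = 0.230), and the difference between the 2 time courses, 0.28, was not past the test (adjusted p = 0.591).

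Sox5, on the minus strand of chromosome 6 (143828425 to 144781977), was present at a far lower level and its genotype difference changed between the weeks. At week 1 its CPM was 2.55, 1.78 and 1.34 in wt/wt and 1.39, 0.878 and 0.840 in the libraries labelled Δ/Δ, and the groups overlapped. At week 4 the wt/wt libraries had fallen to 0.547, 0.575 and 0.349 CPM while those labelled Δ/Δ stood at 1.07, 1.52 and 2.09 CPM. All 3 Δ/Δ libraries of week 4 lay above all 3 of wt/wt.

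The log2 fold change of Sox5, Δ/Δ over wt/wt, was -0.90 at week 1 (standard error 0.33, adjusted p = 0.261) and 1.73 at week 4 (standard error 0.37, adjusted p = 0.00573), a level 3.33 times that of wt/wt. The difference between the weeks was itself past the test (2.63, standard error 0.49, adjusted p = 0.00532). In wt/wt Sox5 fell by 1.99 on the log2 scale from week 1 to week 4 (adjusted p = 0.00117). In Δ/Δ it changed by 0.64, with an interval of -0.07 to 1.35 (adjusted p = 0.148). These values rest on few reads, 7 to 13 counts per library in wt/wt at week 4 against 30 to 190 in Δ/Δ.

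Sox6, on the minus strand of chromosome 7 (115470872 to 116038796), moved against Sox5 at week 4, at a level close to the limit of detection. Its counts at week 1 were 2, 4 and 6 in wt/wt and 3, 7 and 9 in Δ/Δ. At week 4 they were 7, 6 and 16 in wt/wt, or 0.547, 0.266 and 0.559 CPM. In Δ/Δ they were 1, 1 and 13, or 0.0358, 0.0491 and 0.143 CPM, where replicate 3 was the deepest library of that week. The 2 groups of week 4 did not overlap in CPM.

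Sox6 was lower in Δ/Δ at week 4 (log2 fold change -2.14, standard error 0.54, adjusted p = 0.0166), a call lost without wt/wt replicate 3 (adjusted p = 0.0924). Without Δ/Δ replicate 3, which holds 13 of its 15 counts, the value was -3.31 (adjusted p = 0.0151). Sox6 passed the filter on low counts mainly through wt/wt at week 4, its highest group in culture, so the filter itself favoured a high level there. With only the 6 libraries of week 4 it was not tested. At week 1 the log2 fold change was 0.96 (adjusted p = 0.609), and the difference between the weeks was -3.10 (standard error 0.80, adjusted p = 0.0345). That difference was not past the test when any 1 of 7 libraries was left out, with adjusted p from 0.0611 to 0.09997, and was -4.26 without Δ/Δ week 4 replicate 3. In Δ/Δ alone Sox6 changed by -1.46 over time (adjusted p = 0.0691), and by -2.63 without that same library (0.0337). The rise of Sox6 in wt/wt over time (1.64, adjusted p = 0.0368) did not hold with DESeq2 (adjusted p = 0.0714) or without a filter on low counts (0.0631). Leaving out wt/wt replicate 1 or 2 of week 1, or replicate 1 or 3 of week 4, also ended it (0.0729 to 0.145).

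In sorted cells Sox6 was counted 200 to 361 times per library, and its level was 6.49, 4.70 and 8.71 CPM in wt/Δ and 6.03, 8.23 and 5.97 CPM in Δ/Δ. Every sorted library thus stood above every cultured one, whose highest value was 0.559 CPM. Sorted and cultured cells differ in age, handling and cell makeup, and they were counted in separate tables, so this difference is given without a test. Sox5 in sorted cells was 3.88, 0.840 and 1.59 CPM in wt/Δ and 1.596, 2.08 and 3.22 CPM in Δ/Δ. Sox9 was 31.0, 16.8 and 26.0 CPM in wt/Δ and 34.7, 31.9 and 20.1 CPM in Δ/Δ, within the range of culture or just below it.

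**Figure D1:**
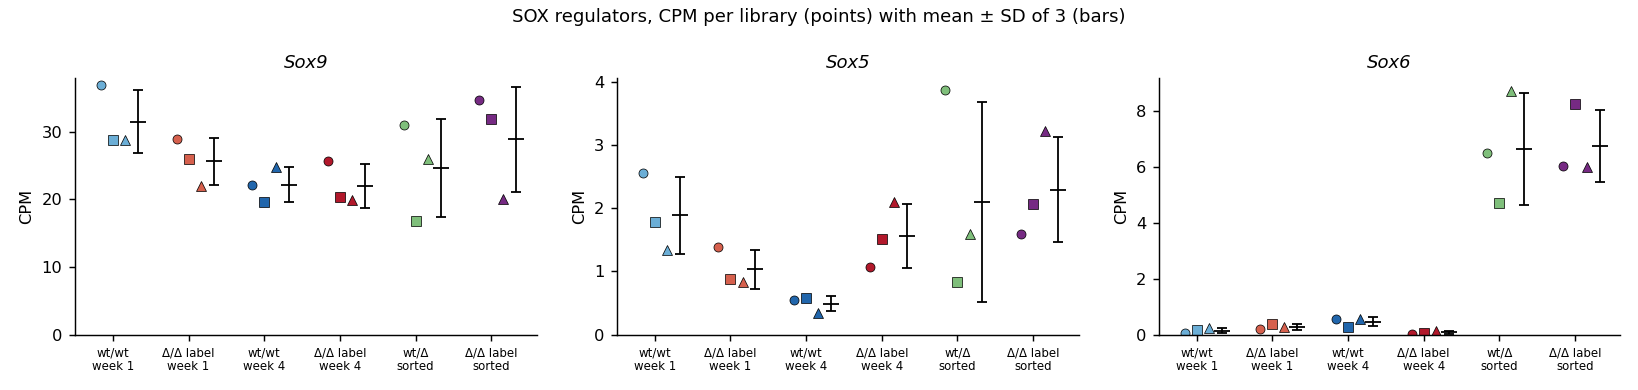
Level of Sox9, Sox5 and Sox6 in CPM in each library (circle, square and triangle for replicates 1, 2 and 3), with the mean and SD of 3 libraries as a black bar, for the 6 groups. At week 4 Sox5 is at 1.07 to 2.09 CPM in the Δ/Δ libraries and 0.349 to 0.575 in wt/wt, and Sox6 is at 4.70 CPM or more in sorted cells only.

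Comp, on chromosome 8 (70373558 to 70382066), encodes a pentameric member of the thrombospondin family that binds collagen fibrils in cartilage and tendon. It was higher in the libraries labelled Δ/Δ at both weeks. At week 1 its level was 30.6, 25.8 and 18.2 CPM in wt/wt and 50.7, 49.2 and 76.6 CPM in Δ/Δ. By week 4 it was 22.6, 39.2 and 22.5 CPM in wt/wt and 46.8, 57.4 and 55.3 CPM in Δ/Δ. At neither week did the genotypes overlap, and the lowest Δ/Δ library of all 6 was above the highest wt/wt one.

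The log2 fold change of Comp was 1.25 at week 1 (standard error 0.26, adjusted p = 0.0407, 2.38 times the wt/wt level) and 0.91 at week 4 (standard error 0.26, adjusted p = 0.0298, 1.87 times). It did not change with time in wt/wt by more than the spread (0.17, interval -0.38 to 0.73) or in Δ/Δ (-0.17, interval -0.72 to 0.38). The genotype difference at week 1 kept its direction but lost its call without any 1 library other than wt/wt replicate 1 (adjusted p 0.0765 to 0.183). A replicate block ended it too (adjusted p = 0.0617), as did a minimum of 10 counts in every library (0.0518). That of week 4 was lost without wt/wt replicate 1 or 3 or Δ/Δ replicate 2 or 3 (0.0715 to 0.112) and with only the 6 libraries of that week (0.0578).

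At week 1 Comp was thus the only 1 of the 7 genes tested that passed, where 1.02% of the 13169 genes tested in culture were called and 0.752% were called higher. At week 4, 4 of 7 were called, where 15.7% of all genes were: Sox5 and Comp higher (9.2% of all genes), Sox6 and Matn2 lower (6.46%). The groups did not overlap for 4 of 7 at week 1 (21.8% of all genes) and for 4 of 7 at week 4 (26.8%). The median log2 fold change of the 7 was 0.26 at week 1 and -0.02 at week 4, beside -0.00361 and 0.00242 over all genes tested. With time, 6 of 7 were called in wt/wt (34% of all genes), 2 higher (17.9%) and 4 lower (16.1%), and the weeks did not overlap for these 6 (42.3%). In Δ/Δ 3 of 7 were called (35.1%), 1 higher (18.8%) and 2 lower (16.3%), and the weeks did not overlap for 4 (50.8%). The difference of the genotype effect between the weeks was called for 2 of 7 (7.15% of all genes), Sox5 upward (4.08%) and Sox6 downward (3.08%). Sox6 was among the 7 mainly through its level in wt/wt at week 4.

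Matn2, on chromosome 15 (34306677 to 34436273), encodes a matrilin found in many tissues besides cartilage. In wt/wt it stood at 52.0, 52.4 and 49.3 CPM at week 1 and at 40.3, 35.6 and 29.3 CPM at week 4. In Δ/Δ it stood at 44.4, 36.2 and 41.9 CPM and then at 22.5, 20.1 and 20.8 CPM. Within each week all wt/wt libraries lay above all Δ/Δ libraries, and within each genotype all of week 1 lay above all of week 4.

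Matn2 was lower in Δ/Δ at week 4 (log2 fold change -0.73, standard error 0.12, adjusted p = 0.00123), at 60.3% of the wt/wt level. At week 1 the difference was -0.33 (interval -0.60 to -0.07) and did not pass after adjustment over all genes (adjusted p = 0.262). It fell with time in wt/wt (-0.57, adjusted p = 0.00301) and in Δ/Δ (-0.97, adjusted p = 7.13e-05). The 2 falls differed by -0.40 (adjusted p = 0.231). The exons of Matn2 share 70 bases with a gene on the other strand, and the library kit keeps no record of strand.

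Matn3, on chromosome 12 (8947929 to 8972028), encodes a matrilin largely confined to cartilage, and it fell during culture in both genotypes. At week 1 its level was 4.25, 2.92 and 4.17 CPM in wt/wt and 4.67, 4.72 and 4.26 CPM in Δ/Δ. By week 4 it was 1.17, 0.708 and 0.908 CPM in wt/wt and 0.930, 1.08 and 1.33 CPM in Δ/Δ. The weeks did not overlap in either genotype.

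The fall of Matn3 was near 4-fold in both: -2.07 on the log2 scale in wt/wt (standard error 0.23, adjusted p = 2.31e-05) and -2.01 in Δ/Δ (standard error 0.21, adjusted p = 1.77e-05). The difference between the 2 falls was 0.06, with an interval of -0.61 to 0.73. Genotype differences of Matn3 were 0.26 at week 1 (interval -0.17 to 0.69) and 0.32 at week 4 (-0.20 to 0.85), neither past the test.

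Matn4, on the minus strand of chromosome 2 (164389393 to 164405160), encodes a matrilin of wide distribution, and it went the other way. At week 1 it was at 0.0923, 0.341 and 0.372 CPM in wt/wt, or 3 to 10 counts, and at 1.03, 0.988 and 0.690 CPM in Δ/Δ. By week 4 it was at 2.58, 4.38 and 3.81 CPM in wt/wt and 1.79, 3.04 and 3.62 CPM in Δ/Δ. Every library of week 4 was above every library of week 1, and at week 1 the genotypes did not overlap.

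The rise of Matn4 with time was 3.77 on the log2 scale in wt/wt (standard error 0.44, adjusted p = 3.26e-05) and 1.67 in Δ/Δ (standard error 0.38, adjusted p = 0.00443). The difference between the rises, -2.10 (interval -3.40 to -0.80), did not pass in edgeR (adjusted p = 0.0549). It passed with DESeq2 (0.00720), without a filter on low counts (0.0381), with library size only (0.0463), with a replicate block (0.0308) and without wt/wt week 4 replicate 1 (0.0268). At week 1 the genotype difference was 1.74 (standard error 0.50, adjusted p = 0.131), which DESeq2 called (adjusted p = 0.0167). For week 4 it was -0.36 (interval -1.08 to 0.35, adjusted p = 0.548). The exons of Matn4 share 149 bases with Rbpjl on the other strand, whose reads cannot be told apart there.

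**Figure D2:**
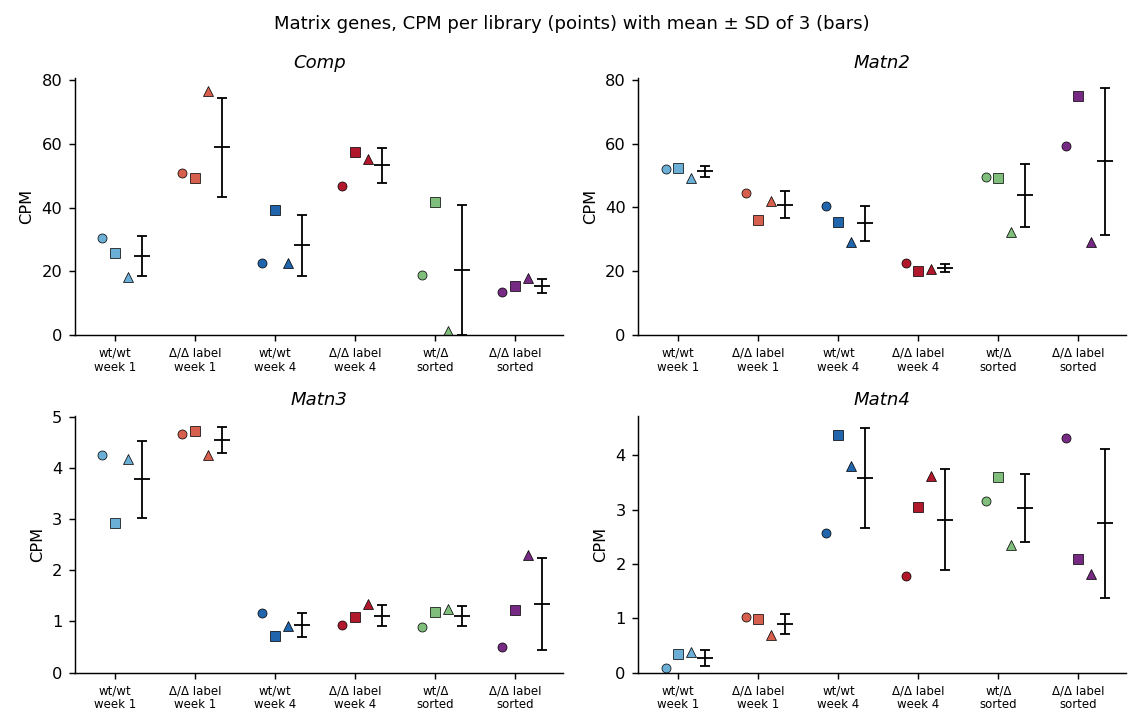
Level of Comp, Matn2, Matn3 and Matn4 in CPM in each library (symbols as replicates 1, 2 and 3), with the mean and SD of 3 libraries as a black bar, for the 6 groups. Comp separates by genotype in culture (46.8 CPM or more in Δ/Δ, 39.2 or less in wt/wt), while Matn3 and Matn4 separate by week.

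The genes of the aggrecan complex were nearly silent in culture. Acan, on chromosome 7 (79053483 to 79115099), had 0 counts in all 6 libraries of week 1 and in all 3 Δ/Δ libraries of week 4, and 1, 2 and 0 counts in wt/wt at week 4. Hapln1, on chromosome 13 (89539796 to 89611652), had 0 to 13 counts per cultured library, at most 0.209 CPM. Matn1, on chromosome 4 (130944385 to 130955475), the matrilin most restricted to cartilage, had 0 counts in all 12 cultured libraries, which allows a level of up to 0.00840 CPM (3 counts over 356960530, counting error only). At this depth Acan, Hapln1 and Matn1 were too low to be tested for a genotype difference in culture.

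The same cultures held large amounts of Col2a1, the main collagen of cartilage, at 5615 to 7935 CPM at week 1 and 1253 to 3393 CPM at week 4. Of the other 6 chondrocyte collagens, Col11a1 was at 17.5 to 144.9 CPM and Col10a1 at 14.8 to 49.3 CPM over the 12 cultured libraries. Col9a1, Col9a2 and Col9a3 were at most 0.0615, 0.474 and 0.442 CPM. Col11a2 was under 0.6 CPM in 9 libraries and at 1.80, 31.5 and 17.4 CPM in wt/wt at week 4. At week 4, 1 of the 4 collagens tested was higher in Δ/Δ and 2 lower (9.2% and 6.46% of all genes). Col10a1 was higher (log2 fold change 1.29, adjusted p = 0.000119), Col11a1 lower (-1.44, adjusted p = 0.00383), Col11a2 lower (-5.21, adjusted p = 0.000507), and Col2a1 was not past the test (-0.34, adjusted p = 0.530).

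In sorted cells all 3 genes of low level in culture were counted. Acan stood at 0.388, 9.62 and 1.73 CPM in wt/Δ and 0.975, 1.80 and 1.07 CPM in Δ/Δ. Hapln1 stood at 0.388, 15.3 and 2.73 CPM in wt/Δ and 2.28, 4.13 and 1.49 CPM in Δ/Δ. Matn1 had 0 counts in wt/Δ replicate 1 and Δ/Δ replicate 1, and 3.24 and 2.18 CPM in the other wt/Δ libraries and 1.94 and 0.537 CPM in the other Δ/Δ libraries. For all 3, wt/Δ held both the highest library and the lowest, Matn1 with a tie at 0.

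A single library was the highest for 4 of the 7 matrix genes. The wt/Δ replicate 2 library was the highest of the 6 for Acan (6.86 times the median of the 6), Hapln1 (6.10 times), Matn1 (2.62 times) and Comp (41.7 CPM, 2.52 times). It was also the highest for 5 of the 7 collagens, among them Col2a1 (182 CPM), Col9a1 (15.2 CPM) and Col10a1 (389 CPM), the last a collagen of hypertrophic cartilage, but not for Col9a2 or Col11a2. The lead was narrow for Col11a1 (911 CPM against 903 CPM in Δ/Δ replicate 1). For the 3 regulators wt/Δ replicate 2 was the lowest of the 6 libraries. How often this library ranks first or last over all genes was not counted, so these ranks cannot be read as particular to cartilage genes. It is 1 of the 2 libraries with many megakaryocyte counts, while the other, Δ/Δ replicate 3, held 1.07 CPM of Acan and 1.49 CPM of Hapln1. In RNA from a mixed sort, fewer cells of a type and less RNA per cell cannot be told apart.

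None of the 10 genes passed the test between Δ/Δ and wt/Δ in sorted cells, and for 0 of 10 did the groups separate (20.3% of all genes). edgeR called 0% of the 14605 genes tested here. At an unadjusted p under 0.05 it counted 0 of the 10 and 12.3% of all genes, and DESeq2 also called 0 of the 10. Acan had a log2 fold change of -1.67 (interval -3.96 to 0.62, adjusted p = 0.547), Hapln1 -1.28 (-3.72 to 1.17) and Comp -0.52 (-2.60 to 1.57). Without wt/Δ replicate 2 these became 0.26, 0.76 and 0.46, so their sign rested on that library. Matn1 at -1.16 (-5.05 to 2.73) had the widest interval.

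For the steadier genes the intervals in sorted cells were narrower. The log2 fold change was 0.15 for Sox9 (interval -0.58 to 0.88), -0.04 for Sox6 (-0.78 to 0.69) and 0.23 for Matn2 (-0.61 to 1.07). Matn2 ran at 49.7, 49.2 and 32.4 CPM in wt/Δ and 59.1, 74.7 and 29.3 CPM in Δ/Δ. Comp in wt/Δ spanned 1.18 to 41.7 CPM, whereas its 3 Δ/Δ libraries lay between 13.4 and 17.8 CPM. Matn3 was at 0.510 to 2.30 CPM and Matn4 at 1.82 to 4.32 CPM over the 6 libraries, with log2 fold changes of 0.20 and -0.23. The Δ/Δ libraries and wt/Δ replicate 2 hold over 100 Xist counts each and the other 2 wt/Δ libraries 0 and 1, so sex is not balanced between the groups. With sex as a covariate, which leaves a lone control of the same sex as the Δ/Δ libraries, 0 of the 10 were called.

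**Figure D3:**
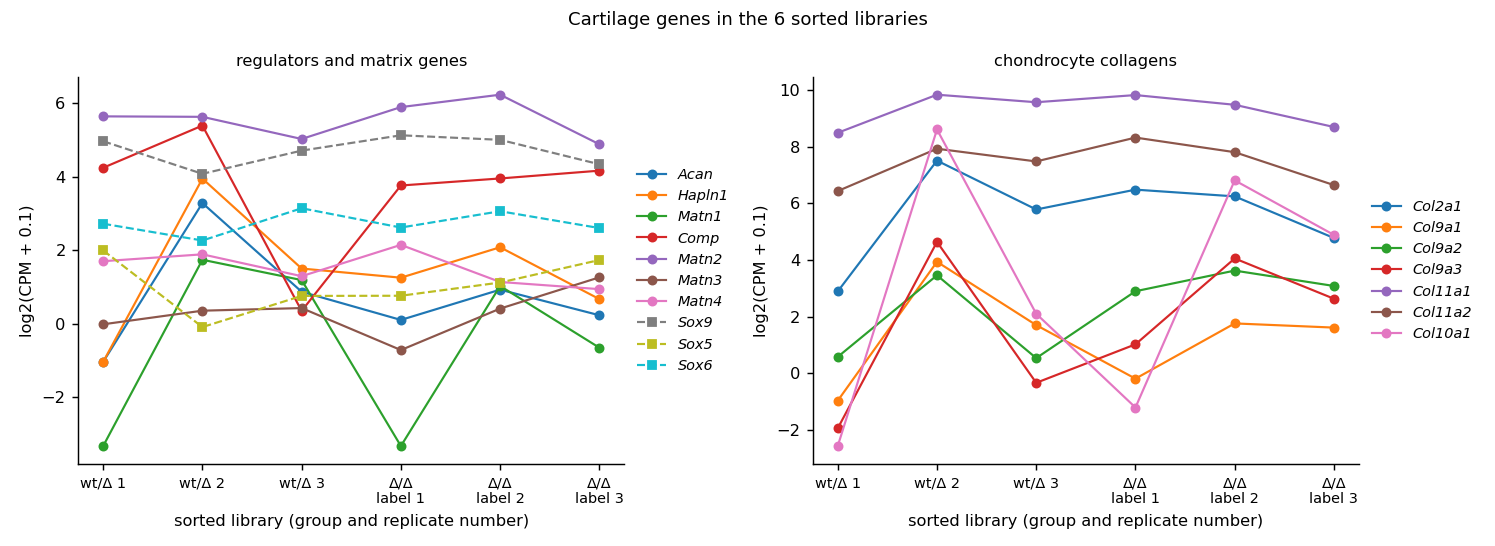
Level, as log2(CPM + 0.1), of the 10 genes (left; matrix genes as circles, regulators as dashed squares) and of 7 collagens (right) in the 6 sorted libraries; lines only join the points of a gene, and a gene with 0 counts sits at the bottom. The wt/Δ replicate 2 library is the highest for 4 of the 10 genes, with 9.62 CPM of Acan and 15.3 CPM of Hapln1, and for 5 of the 7 collagens, and the lowest for Sox9, Sox5 and Sox6. How often it ranks first or last over all genes was not counted.

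**Figure D4:**
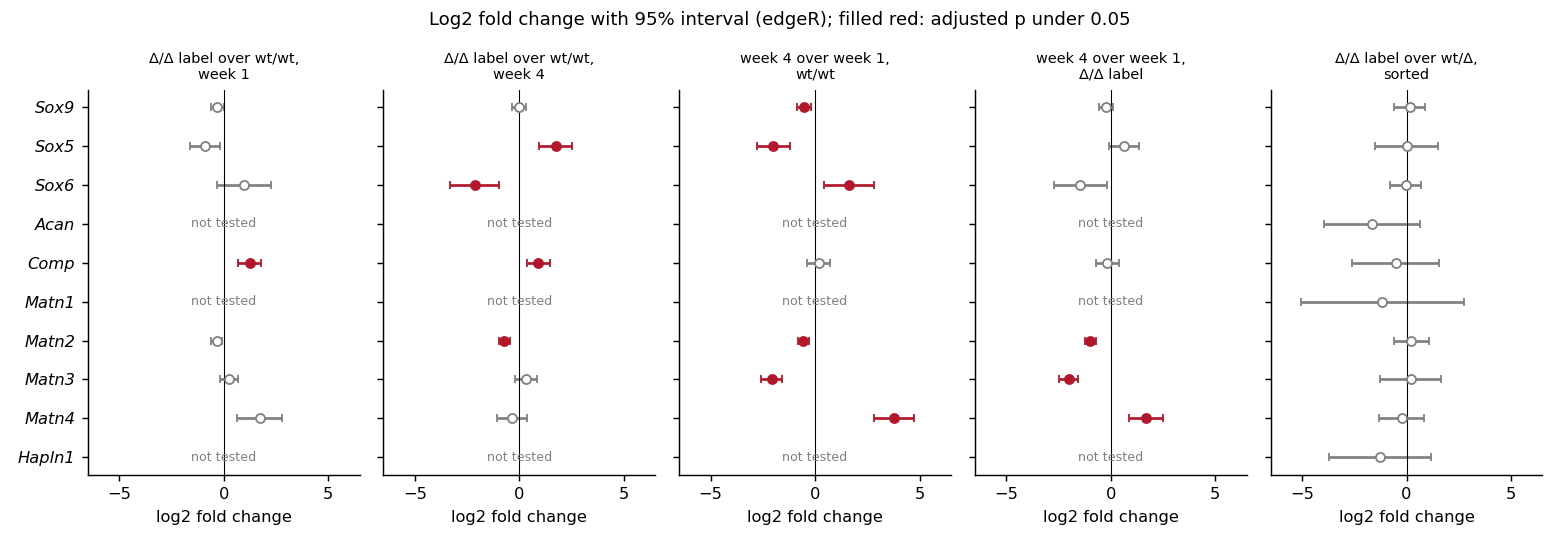
Log2 fold change (x axis) of each of the 10 genes in 5 comparisons, with 95% intervals from edgeR; filled red points have an adjusted p under 0.05. Comp is filled to the right at both weeks, Matn3 to the left and Matn4 to the right over time in both genotypes, and no point is filled in sorted cells.

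A further 61 genes around cartilage, in 7 lists, were read beside the 10, and 44 of them were tested in culture. At week 1, 3 were higher and 0 lower in Δ/Δ (0.752% and 0.266% of all genes). At week 4, 3 were higher and 11 lower (9.2% and 6.46% of all genes), with a median log2 fold change of -0.22 beside 0.00242 for all genes. With time 19 rose and 2 fell in wt/wt (17.9% and 16.1% of all genes), and 12 rose and 7 fell in Δ/Δ (18.8% and 16.3%). In sorted cells 48 were tested and 0 were called.

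Hapln4, a relative of Hapln1 better known from brain, was measured in culture where Hapln1 was near 0. It was at 7.61, 7.81 and 8.50 CPM in wt/wt at week 4 and at 0.179 to 0.540 CPM in Δ/Δ, after 0.480 to 1.23 CPM in both genotypes at week 1. The log2 fold change at week 4 was -4.23 (standard error 0.32, adjusted p = 2.71e-06). In sorted cells Hapln4 stood at 16.5 ± 5.77 CPM in wt/Δ and 14.7 ± 4.52 CPM in Δ/Δ (mean ± SD, n = 3). Vcan, the versican core protein and the most abundant gene of this list, was not past the test at week 4 (-0.05, adjusted p = 0.945).

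Thbs4, a thrombospondin of the same pentameric subgroup as Comp, was lower in Δ/Δ at week 4, where Comp was higher. It had 15.8, 30.0 and 27.8 CPM in wt/wt at week 4, 0 counts in all 6 libraries of week 1 and 1 count in each Δ/Δ library of week 4. Pooled over libraries, wt/wt at week 4 was at least 748-fold higher than at week 1 (against a floor of 3 counts over the group). It was 1212 times Δ/Δ at week 4, with a counting interval of 414 to 5884. Thbs1 and Thbs2, the most abundant of the family, had log2 fold changes of -0.11 and 0.21 at week 4, neither past the test.

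Of the signals and regulators that act on growth plate cells, 11 were tested, and at week 4 0 were higher and 5 lower in Δ/Δ (9.2% and 6.46% of all genes). Ihh, the hedgehog ligand of prehypertrophic cartilage, was at 1.64, 1.95 and 2.02 CPM in wt/wt at week 4 and 0.0715, 0.147 and 0.143 CPM in Δ/Δ (log2 fold change -3.87, adjusted p = 6.45e-06). Pth1r, the receptor for parathyroid hormone and its related protein, was at 443.3 ± 30.1 CPM in wt/wt and 127.1 ± 25.1 CPM in Δ/Δ (-1.81, adjusted p = 5.09e-06). Mef2c, a transcription factor of hypertrophic cartilage, was at 115.0 ± 13.4 and 24.3 ± 2.19 CPM (-2.25, adjusted p = 5.87e-07). Nog, the BMP antagonist noggin, was higher in Δ/Δ at week 1 (1.23, adjusted p = 0.04996, a call lost in 8 of 13 alternatives at 0.0516 to 0.225, among them without any 1 library of that week other than wt/wt replicate 1) and lower at week 4 (-0.84, adjusted p = 0.0350).

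These genes also act in bone, and bone markers moved at the same time. Of 9 osteoblast markers, 8 were lower in Δ/Δ at week 4 and 0 higher (6.46% and 9.2% of all genes). Their summed level was 14085.6 to 18013.4 CPM in wt/wt and 4894.0 to 5816.1 CPM in Δ/Δ. At week 1 it was 5279.8 to 7522.6 and 8236.0 to 8812.3 CPM. The part of these markers in the cartilage values was not tested. Of 5 tendon and ligament markers, 4 were tested, and at week 4 1 was higher and 2 lower (9.2% and 6.46% of all genes).

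**Figure D5:**
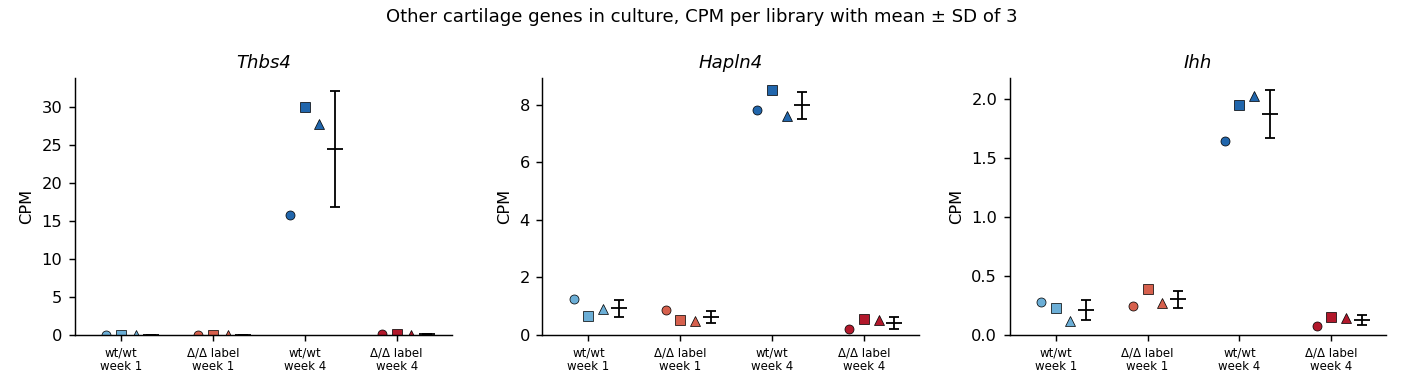
Level of Thbs4, Hapln4 and Ihh in CPM in the 12 cultured libraries (symbols as replicates), with the mean and SD of 3 as a black bar. Each is at its highest in wt/wt at week 4 (15.8 CPM or more for Thbs4, 7.61 for Hapln4, 1.64 for Ihh) and near 0 in Δ/Δ at that week.

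Of 17 genes for the synthesis of chondroitin sulfate, the sugar chain of aggrecan, 1 was higher, 4 were lower and 12 were not past the test at week 4, where 9.2% of all genes were higher and 6.46% lower. Chst13, a sulfotransferase, had the largest called change of the list, with 8.65 ± 2.47 CPM in wt/wt and 1.22 ± 0.653 CPM in Δ/Δ (log2 fold change -2.75, adjusted p = 7.29e-05). Chst15 went the other way, at 69.8, 85.4 and 70.3 CPM in wt/wt and 152.8, 177.0 and 176.9 CPM in Δ/Δ. In sorted cells Chst15 was at 59.0 to 64.1 CPM in wt/Δ and 88.7 to 129.4 CPM in Δ/Δ, where 0 of the 17 were called. Chpf and Ugdh, the most abundant of the list, were not past the test (-0.09 and -0.41). Csgalnact1, which starts the chain, was called higher at week 1 (1.12, adjusted p = 0.00218).

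Of the 5 aggrecan-cleaving ADAMTS proteases tested, 2 were higher in Δ/Δ at week 4 and 0 lower (9.2% and 6.46% of all genes). Adamts15 was at 0.308, 0.114 and 0.446 CPM in wt/wt at week 1 and 23.0, 37.4 and 36.3 CPM at week 4. In Δ/Δ it was at 2.36, 1.32 and 1.53 CPM and then at 61.2, 91.0 and 97.1 CPM. It was higher in Δ/Δ at week 1 (log2 fold change 2.54, adjusted p = 0.0182) and at week 4 (1.35, adjusted p = 0.00360). The call of week 1 was lost without wt/wt replicate 2 or Δ/Δ replicate 1 or 3 (0.0563 to 0.0709). Adamts5 was at 82.2 ± 7.34 CPM in wt/wt and 149.5 ± 18.4 CPM in Δ/Δ at week 4 (0.85, adjusted p = 0.00132). Acan was at or near 0 in the same libraries. Vcan stood at 90.2 to 179.7 CPM in wt/wt and 101.0 to 198.8 CPM in Δ/Δ at week 4. Which substrates these proteases met was not tested.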

How the data were processed

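The deposited values are whole-number read counts per gene symbol, which the authors made with HISAT2 2.0.4 and featureCounts 1.6.3 on mm10 and did not normalize. The kit for full-length cDNA keeps no strand. The annotation and the handling of multi-mapped reads were not given in the sources used here. The 12 cultured and the 6 sorted libraries are separate tables and were fitted separately in R 4.3.3 with edgeR 4.0.16 (filterByExpr with a minimum count of 10, TMM, quasi-likelihood F-test, Benjamini-Hochberg adjustment over all genes tested, threshold 0.05), with 1 coefficient per group. The standard error is the log2 fold change over the root of F. CPM values use library totals without TMM, whose factors were 0.971 to 1.05 in culture and 0.908 to 1.05 in sorted cells. Intervals and floors from counts cover counting error only. The fits were run on simulated data, where a minimum recovery of changes was required of the cultured fit but not of the sorted one. The power of the sorted fit was therefore not established.

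The members and gene lists were chosen with earlier results of these data known. All 10 members are named. Genes named from further lists are among the 4 of highest CPM of their list or have its largest called change in a comparison, and collagens are named as markers. Positions are those of GENCODE vM21. By symbol 137 of 139 listed genes matched, and 2 by synonym. Replicates differed by more than counting noise (chi-squared per degree of freedom 10.8 to 376). Deviations of same-numbered wt/wt libraries correlated over time (0.247, 0.408 and 0.372, each the best match). Those numbers were treated as pairs only in alternative fits with a replicate block, and the values reported have no block. In that comparison the block changed no call among the 7 genes tested. With only the wt/wt libraries 5 were called, since Sox6 was not tested there. Alternatives were other scaling, other filters, DESeq2 1.42.0, a replicate block, fits of 6 libraries, and leaving out each library. Chosen after seeing the data were a sex covariate, a fit without both libraries high in megakaryocyte markers, and a block within wt/wt.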

Additional observations from a re-analysis of the deposited data

Results flagged for a closer look

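The genotype effect differed between week 1 and week 4 by the test of the difference itself for 12 of the genes named. Of all genes tested in culture, 7.15% were called in this comparison. Several of the 12 were named for a large called change in this or another comparison, so their number is no measure of cartilage genes as a set. For Sox5 the log2 difference between the weeks was 2.63 (edgeR, adjusted p = 0.00532), from -0.90 at week 1 to 1.73 at week 4. For Sox6 it was -3.10 (adjusted p = 0.0345), on 1 to 16 counts per library. Sox6 was tested mainly through its level in wt/wt at week 4. Hapln4 had a difference of -3.57 (adjusted p = 0.000729), Ihh one of -4.37 (adjusted p = 0.000320) and Chst13 one of -2.72 (adjusted p = 0.00194). It was -2.17 for Pth1r (adjusted p = 5.79e-05) and -2.51 for Mef2c (adjusted p = 6.90e-06). These 5 genes were lower in Δ/Δ at week 4 and not past the test at week 1. Nog, higher in Δ/Δ at week 1 and lower at week 4, had a difference of -2.07 (adjusted p = 0.00344), and Csgalnact1, called higher at week 1, one of -1.46 (adjusted p = 0.000569). Among the collagens it was 1.12 for Col10a1 (adjusted p = 0.00753), -1.44 for Col11a1 (adjusted p = 0.0467) and -6.10 for Col11a2 (adjusted p = 0.0321).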

How the results depend on the processing

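Of the values of the 10 genes under the alternatives, 539 kept direction and side of the threshold, 28 lost the call, 7 gained one and 35 turned in sign, mostly values near 0. At week 1 the count of called genes was 1; it was 0 with at least 10 counts in every library, 2 with DESeq2, 0 with the replicate block and 0 to 1 leaving out each library. At week 4 it went from 4 to 2 with at least 10 counts, where Sox5 and Sox6 are no longer tested. It went to 2 with only the 6 libraries compared, where Sox6 is not tested, and to 2 to 4 leaving out each library. Over time in wt/wt it went from 6 to 3 with at least 10 counts (4 to 6 leaving out libraries). For the difference between weeks it went from 2 to 0 with at least 10 counts, and 1 to 3 leaving out libraries.

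Over all genes, calls at week 1 were 134, and 85 with at least 10 counts, 453 with DESeq2, 237 with only 6 libraries and 49 to 181 leaving out libraries. At week 4 they were 2062, and 1267 with only 6 libraries. In sorted cells they were 0, and 463 with DESeq2, 4 without wt/Δ replicate 2 and 2 without both libraries rich in megakaryocyte markers.

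In sorted cells, leaving out each library gave log2 fold changes of -2.21 to 0.26 for Acan, -1.07 to 0.46 for Comp, -1.83 to 0.76 for Hapln1, -0.084 to 0.54 for Matn2, -0.40 to 0.58 for Matn3, -0.73 to 0.0088 for Matn4, -0.39 to 0.89 for Sox5, -0.24 to 0.14 for Sox6, -0.070 to 0.42 for Sox9 and -0.28 to 0.014 for Pot1a. Without both libraries rich in megakaryocyte markers, Acan was at 0.39, Comp at 0.37, Hapln1 at 1.05, Matn3 at -0.35 and Matn4 at 0.14. The replicate block gave 0.22 for Comp, -0.021 for Matn3 and 0.30 for Sox5. With sex as a covariate, Sox5 was at 1.37 and Sox6 at 0.45. With library size only, Sox5 was at 0.12 and Sox6 at 0.026, and without a filter Sox5 was at 0.0027.

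In culture, leaving out libraries gave -0.29 to 0.082 for Comp over time in Δ/Δ, -0.16 to 0.32 for Comp over time in wt/wt, -0.13 to 0.19 for the difference between weeks of Matn3 and -0.15 to 0.077 for Sox9 at week 4. For Pot1a it gave -0.084 to 0.046 at week 1 and -0.063 to 0.042 over time in wt/wt, where it was 0.019 with library size only and 0.00044 with only 6 libraries. The cause was not tested. Replicate numbers do not pair the other groups throughout (correlations of -0.528 to 0.858). At week 4, however, wt/wt replicate 1 best matched Δ/Δ replicate 1 (0.858), and wt/wt replicates 2 and 3 best matched Δ/Δ replicates 3 and 2. Depth limits Acan, Hapln1 and Matn1 in culture, and Sox6 there rests on 75 counts in 12 libraries.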
